A study of Mus musculus with 4 samples.

Results

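The genes described here are 10 transcriptional regulators that set whether a T cell stays naive, becomes a memory cell or becomes an effector cell: Satb1, Foxp1, Foxo1, Klf2, Tcf7, Lef1, Bcl6, Prdm1, Id2 and Id3. They were taken by symbol from the 23480 Entrez identifiers measured in every library, and all 10 were found. The rule names them without a threshold on any value, but the set was put together with earlier results of these data known. The study sequenced bulk RNA of mouse T cells in 4 libraries, 2 of cells kept under Th9 conditions and 2 from cells kept under Th9 conditions with TLA1. The series title writes TL1A, read here as the same cytokine of the TNF superfamily. Th9 cells are a helper T cell subset that secretes interleukin 9. Both groups share the Th9 conditions, and strain, age, dose and culture time were not stated in the labels used here.

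Naive T cells are held in a quiet, recirculating state by a set of factors that activation and effector differentiation turn down. FOXO1 acts downstream of PI3K and AKT, which keep it out of the nucleus, and it switches on Klf2 and, through it, genes of lymph node homing. TCF1 (the product of Tcf7), LEF1 and BCL6 are linked with memory and follicular helper cells, while Blimp-1 (the product of Prdm1) and ID2 are linked with effector cells, and BCL6 and Blimp-1 repress each other. ID2 and ID3 have no DNA-binding region and act by binding E proteins, which then cannot bind DNA.

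Gene-counted reads per library ranged from 2979482 to 4041633. A count of 3 reads, the floor used for a gene with 0 reads, was worth 0.742 to 1.01 CPM (reads scaled to the same gene-counted total in every library), for counting error only. All 8 matched T cell markers had reads in every library, with Cd4 at 457 to 520.2 CPM and Cd8a at 0 to 1.24 CPM. The 5 B cell markers summed to 10.4 and 12.9 CPM in Th9 and 28.9 and 29.2 CPM in Th9+TLA1, mostly from Cd79b, with Ms4a1 and Pax5 at 0 reads. The 4 dendritic cell markers summed to 3.16 to 5.69 and 8.76 to 13.8 CPM, the 6 myeloid markers to 0.316 to 2.47 and 0.974 to 1.01 CPM. The 4 NK cell markers summed to at most 2.23 CPM and the 5 mast cell and basophil markers to at most 5.05 CPM in any library. Lyz2, Csf1r and Cd14 were at 0 reads in all 4 libraries. The part of such cells in the results was not tested. In bulk RNA, fewer cells of a type and less RNA per cell cannot be told apart. No label states that the replicates are separate animals or cultures. The p-values therefore rest on the spread among the 4 libraries alone, and that spread may be technical.

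The upstream sequences of 3 members are shown because the first 2 belong to the genes that passed the test, and the third is the only one of the 10 windows with a forkhead or an AP-1 match. Each runs over the 250 bases before a start site of the RefSeq promoter table for GRCm38.p6 (the assembly of mm10), 5′ to 3′ along the gene, with motif matches in capitals. Where that table lists several starts for a gene, the one furthest upstream was taken. The windows of Foxp1 and Prdm1 lie inside the span of the RefSeq gene, which reaches further upstream than the listed start. All 3 lie on the minus strand, at chr17:51833291-51833540, chr6:99520994-99521243 and chr10:44458749-44458998.
Satb1: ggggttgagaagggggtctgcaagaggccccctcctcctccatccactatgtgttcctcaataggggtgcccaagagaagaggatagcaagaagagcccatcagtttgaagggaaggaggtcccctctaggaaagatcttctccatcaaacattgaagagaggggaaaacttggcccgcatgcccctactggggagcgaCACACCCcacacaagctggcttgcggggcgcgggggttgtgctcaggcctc
Foxp1: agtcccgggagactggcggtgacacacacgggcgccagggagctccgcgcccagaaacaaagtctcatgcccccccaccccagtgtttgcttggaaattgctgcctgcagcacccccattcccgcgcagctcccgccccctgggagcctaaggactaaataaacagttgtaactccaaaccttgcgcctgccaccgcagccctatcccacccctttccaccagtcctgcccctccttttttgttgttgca
Prdm1: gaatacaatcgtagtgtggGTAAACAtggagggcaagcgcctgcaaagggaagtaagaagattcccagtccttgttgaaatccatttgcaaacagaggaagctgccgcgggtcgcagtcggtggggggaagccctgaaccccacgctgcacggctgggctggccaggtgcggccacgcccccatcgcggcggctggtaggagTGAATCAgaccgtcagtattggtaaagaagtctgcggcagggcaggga

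The motifs were searched on both strands: forkhead (TGTTTAC), AP-1 (TGANTCA), STAT (TTCNNNGAA), TCF/LEF (CTTTGAA or CTTTGAT) and KLF (CACACCC), all in capitals, and the E-box (CANNTG), left in lower case. No 2 matches in the printed windows overlap. The Satb1 window held 1 KLF match starting 51 bases before the start site, and the Foxp1 window held 1 E-box and none of the capitalised motifs. The Prdm1 window held a forkhead match 231 bases and an AP-1 match 48 bases before the start site, and 2 E-boxes. Of 32851 such windows over all genes, 3.17% held the forkhead motif, 6.75% the AP-1 motif, 6.93% the KLF motif and 66.2% an E-box. Among the other members, the Id3 window held 1 KLF match and the Bcl6 window 1 STAT match, a motif found in 7.02% of windows. The GC content was 58.0% for Satb1, 60.8% for Foxp1 and 59.2% for Prdm1, against a median of 52.4%. A match is a run of letters and not a measured binding site.

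The comparison asked how the fate factors differed when TL1A was added to Th9 cultures. Satb1 rose and Foxp1 fell, while Foxo1, Id2, Klf2, Tcf7 and Lef1 did not pass the test, and Id3, Prdm1 and Bcl6 had too few reads to be tested. Limma was fitted on log2(CPM + 1) of 10324 genes, and a call means a p under 0.05 after Benjamini-Hochberg adjustment over all of them. Folds given with a limma p are on that scale, after scaling between libraries with TMM factors (0.964 to 1.06). They can therefore differ from the ratio of the CPM means printed beside them. Of the 7 members that passed the filter on low counts, 2 were called, 1 in each direction. Over all tested genes 1.16% were called, 0.901% higher and 0.262% lower. The median log2 fold change of the 7 was 0.13, beside -0.01 for all tested genes.

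**Figure D1:**
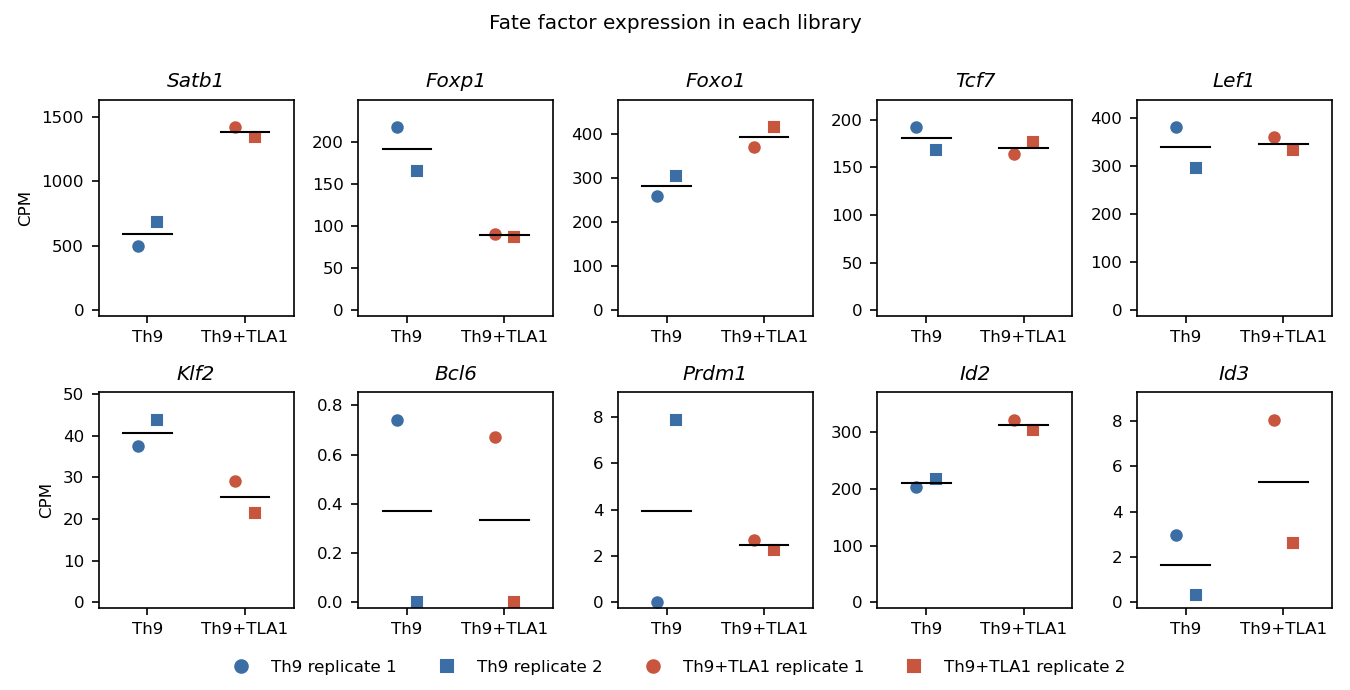
Deposited CPM (vertical axes, linear, each panel on its own scale) of the 10 fate factors in the 4 libraries. Points are libraries, with replicate 1 as circles and replicate 2 as squares, and bars are group means. Satb1 lies at 499.8 and 686 CPM in Th9 and at 1345 and 1417 CPM in Th9+TLA1, while Foxp1 lies lower in both Th9+TLA1 libraries.

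Satb1 (Entrez 20230, chromosome 17, 51736187 to 51833290 of mm10) encodes a chromatin organiser that loops DNA in T cells and thymocytes. Its level was 499.8 and 686 CPM in Th9 and 1417 and 1345 CPM in Th9+TLA1. The groups did not overlap, and the gap between them was wider than the gap between replicates in either group. The means were 593 ± 132 and 1381 ± 51.0 CPM (SD, n = 2 per group). In the fit Satb1 rose 2.51-fold with a 95% interval of 1.85 to 3.41 (log2 fold change 1.33 ± 0.20 SE, limma adjusted p = 0.00934). By p it ranked 31 of 10324 genes. The log2 fold change lay between 1.05 and 1.61 whichever library was left out, but Satb1 was not called without Th9+TLA1 replicate 2 (limma adjusted p = 0.0543) and without a filter on low counts (0.0571).

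Foxp1 (Entrez 108655, chromosome 6, 98925342 to 99522746) encodes a forkhead factor that holds T cells in quiescence. Its levels were 217 and 165 CPM in Th9 and 90.3 and 87.0 CPM in Th9+TLA1, so both Th9 libraries were higher. The mean fell from 191 ± 36.8 to 88.6 ± 2.34 CPM (SD, n = 2 per group). In the fit Foxp1 was 1.99-fold lower (log2 fold change -0.996 ± 0.20 SE, 95% interval -1.44 to -0.55, limma adjusted p = 0.0384). It ranked 104 by p. Foxp1 was not called without Th9 replicate 1 (limma adjusted p = 0.265), Th9 replicate 2 (0.123) or Th9+TLA1 replicate 2 (0.129), with no scaling factors (0.0524) and with no filter on low counts (0.0818), and the log2 fold change stayed between -1.14 and -0.85 in all of these. The locus overlaps 5 predicted genes, and the kit did not mark strand.

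Satb1 and Foxp1 can also be set against each other within a library, where no scaling between libraries enters. This pair was chosen after the values were seen. There were 2.30 and 4.15 Satb1 reads for each Foxp1 read in Th9 and 15.7 and 15.5 in Th9+TLA1. The mean of this ratio was 4.83 times as high in Th9+TLA1. With Satb1 higher and Foxp1 lower in both Th9+TLA1 libraries, the ratio could not overlap. With 2 libraries per group a two-sided exact permutation test cannot go below p = 0.333, so no p is given for ratios.

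Foxo1 (Entrez 56458, chromosome 3, 52268337 to 52350109), the forkhead factor controlled by AKT, had 259.5 and 306 CPM in Th9 and 372 and 416 CPM in Th9+TLA1. Both Th9+TLA1 libraries were higher, but the difference missed the threshold (log2 fold change 0.57 ± 0.18 SE, 95% interval 0.17 to 0.97, limma adjusted p = 0.156). Klf2 (Entrez 16598, chromosome 8, 72319062 to 72321654) encodes the zinc finger factor that drives S1pr1. It had 37.6 and 43.9 CPM in Th9 and 29.2 and 21.4 CPM in Th9+TLA1, from 66 to 152 reads. Both Th9+TLA1 libraries were lower, and the difference did not pass the test (log2 fold change -0.59 ± 0.33 SE, 95% interval -1.31 to 0.13, limma adjusted p = 0.402). Foxo1 and Klf2, a regulator and its target, thus had differences of opposite sign. Within a library there were 6.90 and 6.96 Foxo1 reads per Klf2 read in Th9 and 12.7 and 19.4 in Th9+TLA1. With Foxo1 higher and Klf2 lower in both Th9+TLA1 libraries, this ratio could not overlap and adds no further evidence.

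Tcf7 and Lef1, which encode the HMG-box factors TCF1 and LEF1, had overlapping values in the groups. Tcf7 (Entrez 21414, chromosome 11, 52246527 to 52283383) had 192 and 169 CPM in Th9 and 164 and 177 CPM in Th9+TLA1. The groups overlapped, with a log2 fold change of 0.01 ± 0.18 SE and a 95% interval of -0.39 to 0.41 (limma adjusted p = 0.988), and the sign turned with no scaling factors (-0.08). Its locus overlaps Skp1. Lef1 (Entrez 16842, chromosome 3, 131110297 to 131224357) had 382 and 297 CPM in Th9 and 361 and 334 CPM in Th9+TLA1, also overlapping. Its log2 fold change was 0.13 ± 0.18 SE with a 95% interval of -0.26 to 0.53 (limma adjusted p = 0.765). On the fold scale these intervals run from 0.762 to 1.33 for Tcf7 and from 0.837 to 1.44 for Lef1, so changes within them could not be seen. The 2 genes kept a similar proportion, with 0.504 and 0.567 Tcf7 reads per Lef1 read in Th9 and 0.454 and 0.529 in Th9+TLA1.

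**Figure D2:**
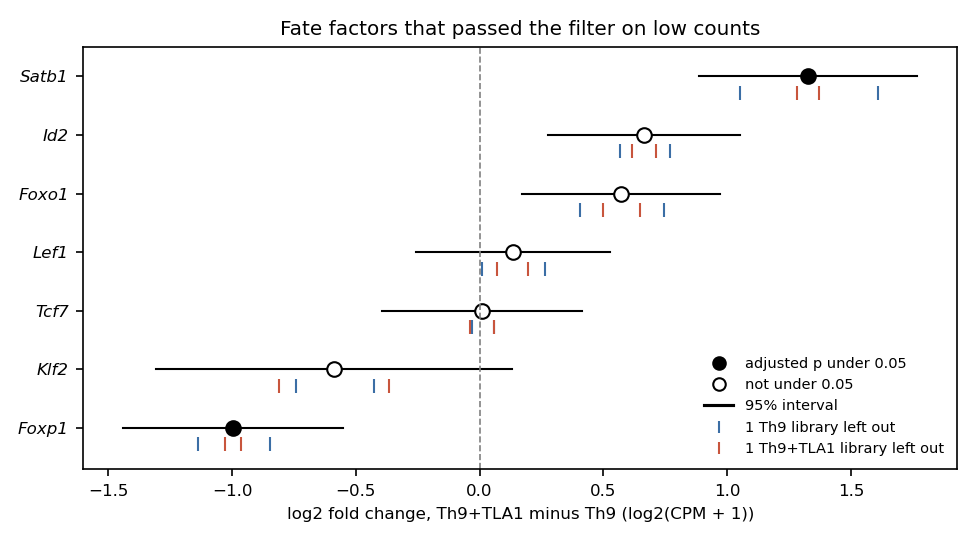
Log2 fold change (horizontal axis, Th9+TLA1 minus Th9) of the 7 members that passed the filter. Circles are the fit on all 4 libraries with 95% intervals, filled where the adjusted p is under 0.05, and ticks give the value with 1 library left out. Satb1 and Foxp1 are filled, and the interval of Klf2, Tcf7 and Lef1 crosses 0.

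Id2 (Entrez 15902, chromosome 12, 25093799 to 25096092), the Id protein gene of effector cells, had 202 and 217 CPM in Th9 and 321 and 302 CPM in Th9+TLA1. The replicates lay close together and the groups did not overlap. The means were 209 ± 10.2 and 312 ± 13.2 CPM (SD, n = 2 per group), and the log2 fold change of 0.66 ± 0.18 SE (95% interval 0.28 to 1.05) missed the threshold (limma adjusted p = 0.109). DESeq2 on the recovered reads called it (adjusted p = 0.0436), where 2.64% of tested genes were called. EdgeR's quasi-likelihood test, which called 1.07%, did not (adjusted p = 0.125).

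Id3 (Entrez 15903, chromosome 4, 136143822 to 136145392), its relative linked with naive and memory cells, was low and uneven. There were 12 and 1 reads in Th9 and 24 and 8 reads in Th9+TLA1, or 2.97, 0.316, 8.06 and 2.60 CPM. The groups overlapped, and within Th9+TLA1 the exact Poisson 95% intervals of the replicates, 5.16 to 12.0 and 1.12 to 5.12 CPM, did not. Without a filter on low counts its log2 fold change was 1.39 ± 0.75 SE (limma adjusted p = 0.468).

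The antagonists Bcl6 and Prdm1 were both near the floor. Bcl6 (Entrez 12053, chromosome 16, 23965050 to 23988866) had 3 and 0 reads in Th9 and 2 and 0 reads in Th9+TLA1, at or under 3 reads in every library, so no fold is given. Prdm1 (Entrez 12142, chromosome 10, 44437174 to 44528558), the gene of Blimp-1 whose upstream window carries the forkhead and AP-1 matches, had 0 and 25 reads in Th9 and 8 and 7 reads in Th9+TLA1. The 2 Th9 libraries enclosed the Th9+TLA1 libraries: their levels were 0 and 7.89 CPM, with exact Poisson 95% intervals of up to 0.913 and of 5.11 to 11.7 CPM that did not overlap. The Th9+TLA1 levels were 2.69 and 2.27 CPM. Without a filter on low counts the log2 fold change of Prdm1 was 0.25 (limma adjusted p = 0.921), and it turned to -1.32 without Th9 replicate 1, which held the 0. At this depth no direction could be given for Bcl6, Prdm1 or Id3.

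Of the 7 tested members the groups did not overlap for 5, with Satb1, Foxo1 and Id2 higher and Foxp1 and Klf2 lower with TLA1. Over all tested genes 47.4% did not overlap, so this count alone says little about the members. At an unadjusted limma p under 0.05 there were 4 members, Satb1, Foxp1, Foxo1 and Id2, beside 16.7% of all tested genes.

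Levels of different genes were compared per kilobase of exon, with exon lengths from the GENCODE M21 basic annotation. The length was the union of a gene's exons, 11491 bases for Satb1, 2625 for Tcf7 and 3506 for Lef1. The order of genes depends on these lengths, and no others were tried. By mean CPM, without a length, Satb1 (593) lay above Lef1 (339) and Tcf7 (180) already in Th9. In Th9 the order was Lef1 (96.8 ± 17.0 CPM per kilobase), Id2 (85.9 ± 4.19), Tcf7 (68.7 ± 6.37), Satb1 (51.6 ± 11.5), Foxo1 (32.6 ± 3.76), Foxp1 (24.4 ± 4.69) and Klf2 (22.1 ± 2.40). In that order Lef1 and Id2, and Foxp1 and Klf2, had overlapping library values. In Th9+TLA1 the order of these levels was Id2 (127.9 ± 5.43), Satb1 (120.2 ± 4.44), Lef1 (99.0 ± 5.48), Tcf7 (64.8 ± 3.44), Foxo1 (45.5 ± 3.61), Klf2 (13.7 ± 2.98) and Foxp1 (11.3 ± 0.298). With these lengths, both Satb1 values thus lay below both Tcf7 values in Th9 and above both Lef1 values in Th9+TLA1. There the library values of Id2 (131.7 and 124.1) and Satb1 (123.3 and 117) were adjacent without overlapping. The remaining members were far lower on this scale, at means over 4 libraries of 2.73 for Id3, 0.598 for Prdm1 and 0.100 for Bcl6. Among genes with a read, Id2, Lef1 and Satb1 lay at the 94.9, 94.2 and 93.1 percentiles of this level and Bcl6 at the 9.53 percentile.

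**Figure D3:**
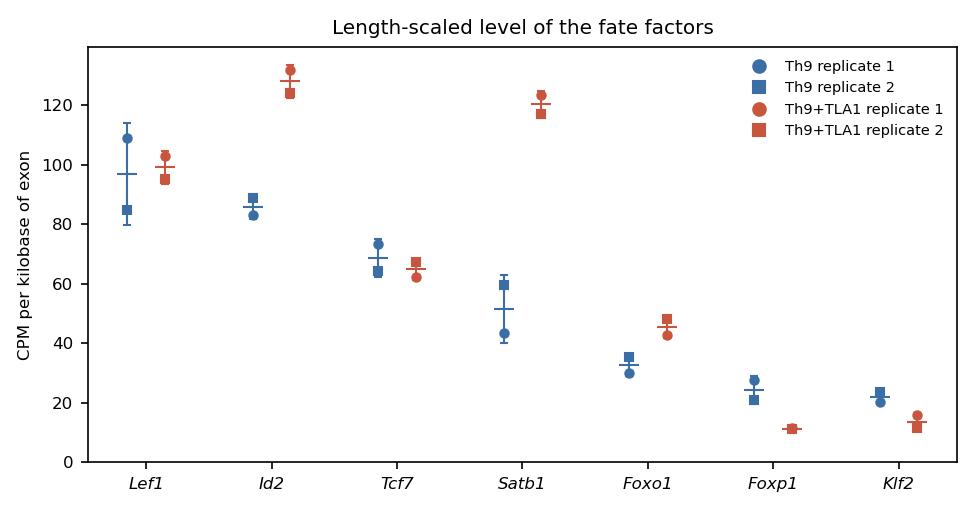
Level in CPM per kilobase of exon (vertical axis, linear from 0) of the 7 tested members, ordered by their Th9 mean. Points are libraries, and dashes and error bars are the mean and SD of 2 libraries. Satb1 moves from 51.6 in Th9, under Tcf7, to 120.2 in Th9+TLA1, above Lef1, and this order depends on the exon lengths taken.

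In Th9 the replicates of the 7 tested members lay closer together than those of the 3 others. There the replicates of all tested genes differed by a median of 0.33 on the log2(CPM + 1) scale, and the difference was 0.54 for Satb1, 0.32 for Foxo1, 0.31 for Foxp1, 0.30 for Klf2, 0.27 for Lef1, 0.19 for Id2 and 0.10 for Tcf7. It was 3.15 for Prdm1, 1.53 for Id3 and 0.76 for Bcl6. These 3 were removed by the filter on low counts, where a small difference in reads is wide on this scale. For Bcl6 it was 3 reads against 0. In Th9+TLA1 the median was 0.31, and Satb1 (0.09) and Foxp1 (0.07) lay below it while Klf2 (0.44), Bcl6 (0.76) and Id3 (1.35) lay above it and Prdm1 was at 0.18. Leaving out Th9 replicate 1 gave Satb1 a log2 fold change of 1.05, and leaving out Th9 replicate 2 gave 1.61.

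Partners and targets of the members were taken from 8 lists. Each list's count at an unadjusted limma p under 0.05 stands beside 16.7% of all tested genes, both directions together. E proteins are the partners that ID2 and ID3 bind. The list of E proteins and other Id genes had 4 tested genes, Tcf3, Tcf4, Tcf12 and the Id gene Id1. They held 0 limma calls, 2 at an unadjusted p under 0.05, 0 in edgeR and 0 in DESeq2. Tcf3, which encodes E2A, had 136 and 109 CPM in Th9 and 66.1 and 69.8 CPM in Th9+TLA1. Both Th9+TLA1 libraries were lower, and the log2 fold change of -0.74 ± 0.22 SE missed the threshold (limma adjusted p = 0.133). Tcf4, which encodes E2-2 and was chosen after its values were seen, had 21.5 and 31.6 CPM in Th9 and 50.3 and 68.2 CPM in Th9+TLA1 (log2 fold change 1.23 ± 0.32 SE, limma adjusted p = 0.105). There were 1.49 and 1.99 Id2 reads per Tcf3 read in Th9 and 4.86 and 4.34 in Th9+TLA1. With Id2 higher and Tcf3 lower in both Th9+TLA1 libraries, this ratio could not overlap and adds no further evidence. This ratio covers only Tcf3, which was lower, while Tcf4 was higher. Tcf12, also an E protein gene and chosen after its values were seen, had 37.4 and 52.7 CPM in Th9. It had 68.5 and 22.4 CPM in Th9+TLA1 (log2 fold change -0.08, limma adjusted p = 0.957).

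Genes of naive cell homing and survival, among them targets of FOXO1 and KLF2, held 0 limma calls among 18 tested, with 6 higher and 1 lower at an unadjusted p under 0.05. EdgeR called 0 and DESeq2 2, Ccr7 and Pdk1. The groups did not overlap for 9 higher and 2 lower genes, beside 23.7% and 23.6% of all tested genes. The median log2 fold change was 0.27. Ccr7, the chemokine receptor of lymph node entry, had 482 and 581 CPM in Th9 and 940.1 and 708 CPM in Th9+TLA1 (log2 fold change 0.72 ± 0.20 SE, limma adjusted p = 0.121). The KLF2 target S1pr1, the receptor of lymph node exit, was chosen after its values were seen. It had 66.3 and 64.1 CPM in Th9 and 72.2 and 74.0 CPM in Th9+TLA1 (limma adjusted p = 0.635).

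The list of FOXO control by PI3K and AKT held 0 limma calls among 16 tested genes, with 1 higher and 4 lower at an unadjusted p under 0.05. EdgeR called 0 and DESeq2 2. The groups did not overlap for 1 higher and 10 lower genes, beside 23.7% and 23.6% of all tested genes. The median log2 fold change was -0.36. Ywhaz, a 14-3-3 protein gene and the most abundant of the list, had 983 and 1056 CPM in Th9 and 831 and 925 CPM in Th9+TLA1 (limma adjusted p = 0.779).

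Cofactors of TCF and LEF and genes of the Wnt pathway held 0 limma calls among 13 tested genes, 1 at an unadjusted p under 0.05, and 0 in edgeR and DESeq2. Their median log2 fold change was -0.08. Csnk1a1, a kinase of the beta-catenin destruction complex and the most abundant, had 461 and 518 CPM in Th9 and 407 and 441 CPM in Th9+TLA1 (limma adjusted p = 0.805). Axin2, a classic target of TCF and beta-catenin, was below the filter on low counts, with at most 2.84 CPM in any library.

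Among 12 tested BCL6 corepressors and follicular helper genes 1 was called, Il21, the cytokine of follicular helper cells, which was higher. It had 10.9 and 5.68 CPM in Th9 and 97.3 and 70.1 CPM in Th9+TLA1 (limma adjusted p = 0.00160). The corepressor gene Bcor had 135 and 136 CPM in Th9 and 113 and 115.5 CPM in Th9+TLA1. Its log2 fold change of -0.15 had a 95% interval of -0.58 to 0.28 (limma adjusted p = 0.764). Cxcr5, which marks follicular helper cells, had 0 reads in 3 of the 4 libraries and 1.89 CPM in Th9 replicate 2. Both were chosen after their values were seen. Among 10 tested effector differentiation genes Gzmb, which encodes granzyme B, was called lower, at 237 and 272 CPM in Th9 and 86.3 and 64.3 CPM in Th9+TLA1 (limma adjusted p = 0.00410). The other 9 tested effector genes had positive log2 fold changes, from 0.04 to 1.92, and 3 of them had an unadjusted limma p under 0.05. Over all tested genes, 5054 of 10324 had a positive log2 fold change. Limma and edgeR called none of the 9 and DESeq2 called Bhlhe40, and the list's median was 0.41. The calls of Il21 (limma adjusted p = 0.0791) and Gzmb (0.120) were lost without Th9 replicate 2.

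**Figure D4:**
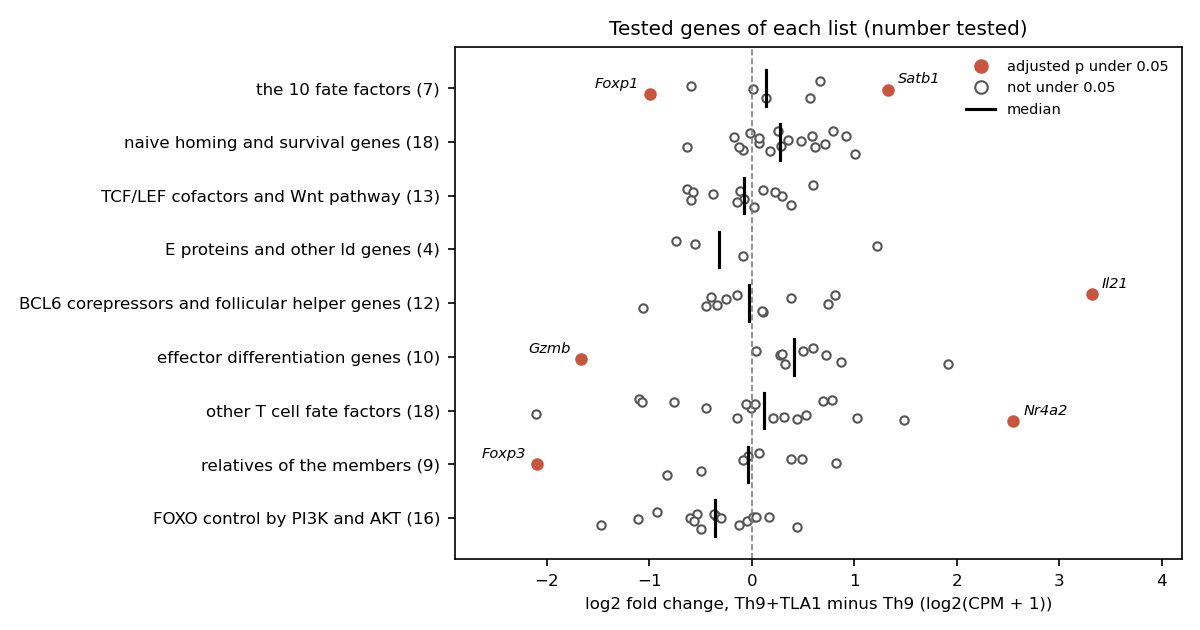
Log2 fold change (horizontal axis, Th9+TLA1 minus Th9) of each tested gene in the fate factor set and in 8 related lists, with the number tested in brackets. Filled circles have an adjusted p under 0.05 and vertical bars are medians. Outside the fate factors the called genes are Il21, Gzmb, Nr4a2 and Foxp3, and the bar of the PI3K and AKT list lies at -0.36.

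Of 18 tested genes among other T cell fate factors 1 was called, Nr4a2, a nuclear receptor induced by T cell receptor signals, which was higher, at 13.1 and 7.26 CPM in Th9 and 72.2 and 47.4 CPM in Th9+TLA1 (limma adjusted p = 0.0101, but 0.125 without Th9 replicate 2 and 0.0511 with no filter on low counts). DESeq2 called Nr4a2 and Ezh2. Nr4a1 and Nr4a3, relatives of Nr4a2 in the same list, were chosen after their values were seen. Nr4a3 had 12.6 and 7.89 CPM in Th9 and 1.01 and 1.95 CPM in Th9+TLA1, the latter from 3 and 6 reads. Its log2 fold change was -2.11 (limma adjusted p = 0.149). Nr4a1 had 71.3 and 47.4 CPM in Th9 and 60.7 and 51.0 CPM in Th9+TLA1, with a log2 fold change of 0.03. Whether T cell receptor signals differed between the groups was not tested. The following 2 genes of that list were chosen after their values were seen. Bach2, a repressor that guards naive and memory states, had 65.6 and 61.6 CPM in Th9 and 98.7 and 95.7 CPM in Th9+TLA1 (limma adjusted p = 0.150). Myb, a factor linked with stem-like memory cells, had 78.4 and 56.2 CPM in Th9 and 27.9 and 29.2 CPM in Th9+TLA1 (limma adjusted p = 0.0999).

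Among the 9 tested relatives of the members the relative of Foxp1, Foxp3, was called lower. Foxp3, the factor of regulatory T cells, had 123 and 80.5 CPM in Th9 and 19.1 and 23.0 CPM in Th9+TLA1 (limma adjusted p = 0.00590). Its call was lost without Th9 replicate 1 (limma adjusted p = 0.0805) or Th9 replicate 2 (0.0913). Foxp3 and Foxp1 were lower and Satb1 higher in the same libraries, and whether a different share of regulatory T cells takes part in the values of Satb1 and Foxp1 was not tested. Foxp4, the other forkhead relative that passed the filter, had 13.6 and 14.8 CPM in Th9 and 10.7 and 15.6 CPM in Th9+TLA1 (limma adjusted p = 0.979). It was chosen after its values were seen.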

How the data were processed

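RNA of 4 mouse T cell libraries was measured, 2 per group. Per the labels' protocols, cDNA was made with a SMARTer low-input kit and sequenced on Ion Torrent. HTSeq 0.5.4, edgeR and mm10 are named in the submitters' processing notes, without an aligner or annotation. The authors deposited CPM. All non-zero values (100%) were whole multiples of 1 read within 0.01 of a read, so reads were recovered. RefSeq symbols (GRCm38.p6) matched 23383 of 23480 identifiers.

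Genes were filtered with filterByExpr (minimum count 10), CPM divided by TMM factors (0.964 to 1.06), and log2(CPM + 1) fitted with limma 3.58.1 (R 4.3.3; eBayes, trend) with the group as the only term. EdgeR 4.0.16 and DESeq2 1.42.0 ran on recovered reads. Scripts were tested on simulated data. Other alternatives were scaling, filter, pseudocounts of 0.5 and 2 CPM, the replicate number as a block and leaving out each library. Replicates of a group were not copies. Their squared count differences were 7.54 (Th9+TLA1) and 12.2 (Th9) times those of sampling noise (chi-square per degree of freedom). All 10 members are named. In each list called genes are named (up to 4), or else the most abundant gene. Members and lists were chosen with earlier results of these data known. Aes was matched as Tle5. Trbc1 and Trbc2 are not analysed here, and some list genes are not reported here. Floors and intervals cover counting error only, since amplified reads are not independent molecules.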

Additional observations from a re-analysis of the deposited data

How the results depend on the processing

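Over all genes, limma called 120. The count was 73 with no scaling factors, 33 with no filter on low counts, 273 in DESeq2 and 223 with the replicate number as a block, and it ranged from 20 (without Th9 replicate 2) to 155 when 1 library was left out (42 without Th9 replicate 1). Of the fate factors, 2 were called, 1 with no scaling factors (Satb1), 0 with no filter (4 at an unadjusted limma p under 0.05; edgeR called 2 and DESeq2 3 with the filter), and 0 to 2 with 1 library left out. The 0 came without Th9+TLA1 replicate 2, where 3 members had an unadjusted p under 0.05. The replicate block left 2 called, Satb1 and Foxp1. The labels tie no number to an animal or day, and the deviations of same-numbered libraries correlated at -0.011, so the numbers were not taken as pairs. Satb1 kept its direction and call in 10 of 12 alternatives and Foxp1 in 7 of 12, with no change of sign. Tcf7 changed sign with no scaling factors (-0.082) and ranged from -0.037 to 0.057 with 1 library left out, and Csnk1a1 ranged from -0.247 to 0.0265 (positive without Th9 replicate 2), none of them called. Leaving out a library left fewer libraries and dropping the filter left more genes tested, but the cause of these changes was not tested. Depth limits Bcl6, Prdm1 and Id3, which had at most 25 reads in any library.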
